A study of Mus musculus with 5 samples.

Results

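The E proteins Tcf3, Tcf4 and Tcf12 and the Id genes Id1, Id2, Id3 and Id4 all had NEUROD2 binding regions in or around the gene in the embryonic mouse cortex. Regions called with at least 2 antibodies were found at all 7 loci, as at 67.6% of protein-coding genes. NEUROD2 chromatin immunoprecipitation and sequencing (ChIP-Seq) peaks of 3 antibodies were taken where the peak midpoint lay in the gene, by the GENCODE M21 transcript with the longest span, or within 50 kb of either end. Overlapping peaks were merged into regions. This gave 69 regions at the 7 loci, of 53837 in the whole genome, and the 7 genes are among 21938 protein-coding genes. Peaks of at least 2 antibodies were found in 40 of the 69 regions, called shared regions below, and peaks of all 3 antibodies in 7. The shared ones are 58.0% of the regions at the 7 loci and 59.9% of those in the genome, so their share was close to the background.

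The samples were dorsal telencephalon of BALB/c mouse embryos at stage E14.5, with no treatment named, with embryos of several mothers pooled for each precipitation. The antibody named ab1 came from mouse and the other two, ab2 and ab3, from rabbit. Each gave 1 library, called against a GFP antibody library of its host species, so that ab2 and ab3 share a control. The study therefore has no second condition and no replicate of an antibody, and no test could be made: the member counts are set beside the same counts over all protein-coding genes or all regions. The GFP libraries enter only through the peak calls, and their own signal was not analysed here.

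E proteins are broadly expressed class I basic helix-loop-helix (bHLH) factors. Tissue-specific class II factors such as NEUROD2 bind DNA as heterodimers with them, at the E-box, the sequence CANNTG. Id proteins keep the helix-loop-helix that dimerises but lack the basic region that contacts DNA. They bind E proteins and so keep them from class II partners, and in the developing brain they are known for their expression in progenitors and their induction by BMP signals. The 7 genes thus encode dimerisation partners of NEUROD2 and the inhibitors of that partnership.

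The sequences under 5 of the regions bound with all 3 antibodies are printed first, because these regions were called by every antibody. Each is the 200 bp around the midpoint of the ab3 peak, a centre chosen after the values had been seen, from the mm10 reference (GRCm38) on the + strand, with every CANNTG in capitals.
Tcf12 intron 5, first region (chr9:71976143-71976342): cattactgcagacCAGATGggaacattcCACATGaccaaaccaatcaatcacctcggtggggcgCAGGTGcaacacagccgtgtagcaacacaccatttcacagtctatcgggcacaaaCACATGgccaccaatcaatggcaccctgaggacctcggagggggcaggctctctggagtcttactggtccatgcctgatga
Tcf12 intron 5, second region (chr9:71974512-71974711): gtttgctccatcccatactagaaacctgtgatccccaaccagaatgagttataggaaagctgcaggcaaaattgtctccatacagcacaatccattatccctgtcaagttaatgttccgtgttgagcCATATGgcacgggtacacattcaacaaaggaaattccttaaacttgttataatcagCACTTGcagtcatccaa
Id1 upstream (chr2:152723888-152724087): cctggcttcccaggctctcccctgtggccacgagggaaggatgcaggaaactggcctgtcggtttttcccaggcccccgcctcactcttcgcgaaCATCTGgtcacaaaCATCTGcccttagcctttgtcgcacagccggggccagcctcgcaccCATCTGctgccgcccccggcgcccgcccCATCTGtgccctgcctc
Id3 downstream (chr4:136154353-136154552): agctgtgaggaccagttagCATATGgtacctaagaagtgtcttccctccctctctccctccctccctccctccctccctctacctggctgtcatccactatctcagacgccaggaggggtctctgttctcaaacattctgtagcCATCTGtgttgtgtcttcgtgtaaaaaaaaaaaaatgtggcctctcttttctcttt
Id4 upstream (chr13:48227795-48227994): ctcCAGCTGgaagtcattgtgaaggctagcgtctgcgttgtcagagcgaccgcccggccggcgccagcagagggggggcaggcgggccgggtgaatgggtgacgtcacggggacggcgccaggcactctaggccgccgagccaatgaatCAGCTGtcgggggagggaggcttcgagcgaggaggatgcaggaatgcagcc
The Id1 window held 4 copies of CATCTG, which reads CAGATG on the other strand. The Id4 window held 2 copies of CAGCTG and no other E-box. The Id3 window held CATATG and CATCTG. The first Tcf12 window held 4 E-boxes of 3 forms, with CACATG present 2 times, and the second held CATATG and CACTTG.

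The next set shows regions of 2 antibodies that lay closest to a transcription start site (TSS) or had the highest score of their gene. Windows of 200 bp around the region midpoint are given, or 26 bp around the E-box where the window overlapped an untranslated region, again on the + strand of mm10 with E-boxes in capitals.
Tcf3 upstream (chr10:80444431-80444630): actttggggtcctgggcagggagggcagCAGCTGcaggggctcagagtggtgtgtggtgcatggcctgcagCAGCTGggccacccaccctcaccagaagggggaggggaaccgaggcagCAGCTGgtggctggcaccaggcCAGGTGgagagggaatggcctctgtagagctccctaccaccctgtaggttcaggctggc
Id2 upstream (chr12:25098637-25098836): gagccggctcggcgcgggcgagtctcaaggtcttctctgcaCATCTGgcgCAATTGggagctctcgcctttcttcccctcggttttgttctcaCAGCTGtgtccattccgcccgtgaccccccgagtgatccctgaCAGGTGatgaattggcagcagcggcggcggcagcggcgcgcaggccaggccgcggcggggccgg
Id3 upstream (chr4:136140429-136140628): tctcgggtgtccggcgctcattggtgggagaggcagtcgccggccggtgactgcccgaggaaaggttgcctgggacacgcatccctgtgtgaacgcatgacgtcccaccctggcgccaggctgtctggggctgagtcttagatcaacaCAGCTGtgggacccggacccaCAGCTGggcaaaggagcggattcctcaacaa
Id4 first exon (chr13:48261688-48261887): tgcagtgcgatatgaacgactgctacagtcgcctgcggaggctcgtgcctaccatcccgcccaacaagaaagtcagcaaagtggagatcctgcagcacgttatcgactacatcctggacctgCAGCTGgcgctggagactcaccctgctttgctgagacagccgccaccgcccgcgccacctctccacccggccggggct
Id2 start, short stretch (chr12:25096273-25096298): ggcgagagccCAGCTGgggtggcaaa
Mbd3 start, short stretch (chr10:80399336-80399361): ccactcgccgCAGCTGttctgtccca
All 6 printed stretches held CAGCTG, the form with GC as its middle bases. The 2 short ones were cut around their E-box, so that they hold one by choice, and the regions nearest the TSS of Tcf4 and of Tcf12, chosen by the same rule and not printed, held no CANNTG in the central window. It stood 3 times in the Tcf3 window and 2 times in the Id3 window. The short stretches lie under the Id2 region nearest its TSS and under the region of highest score in the Tcf3 window, which falls at the start of the neighbour Mbd3.

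Shared regions lay mostly inside the gene at Tcf4 and Tcf12 and outside it at Tcf3. Of the 19 at Tcf4, 18 were in introns, of the 5 at Tcf12, 4 were, and of the 2 at Tcf3, 0 were. At the 4 Id loci none of the 14 shared regions lay in an intron and 12 lay outside the gene. The Id genes span between 1.16 and 4.80 kb, against 24.1 to 344.6 kb for the E proteins, so the part of each window that an intron could fill differed widely.

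**Figure D1:**
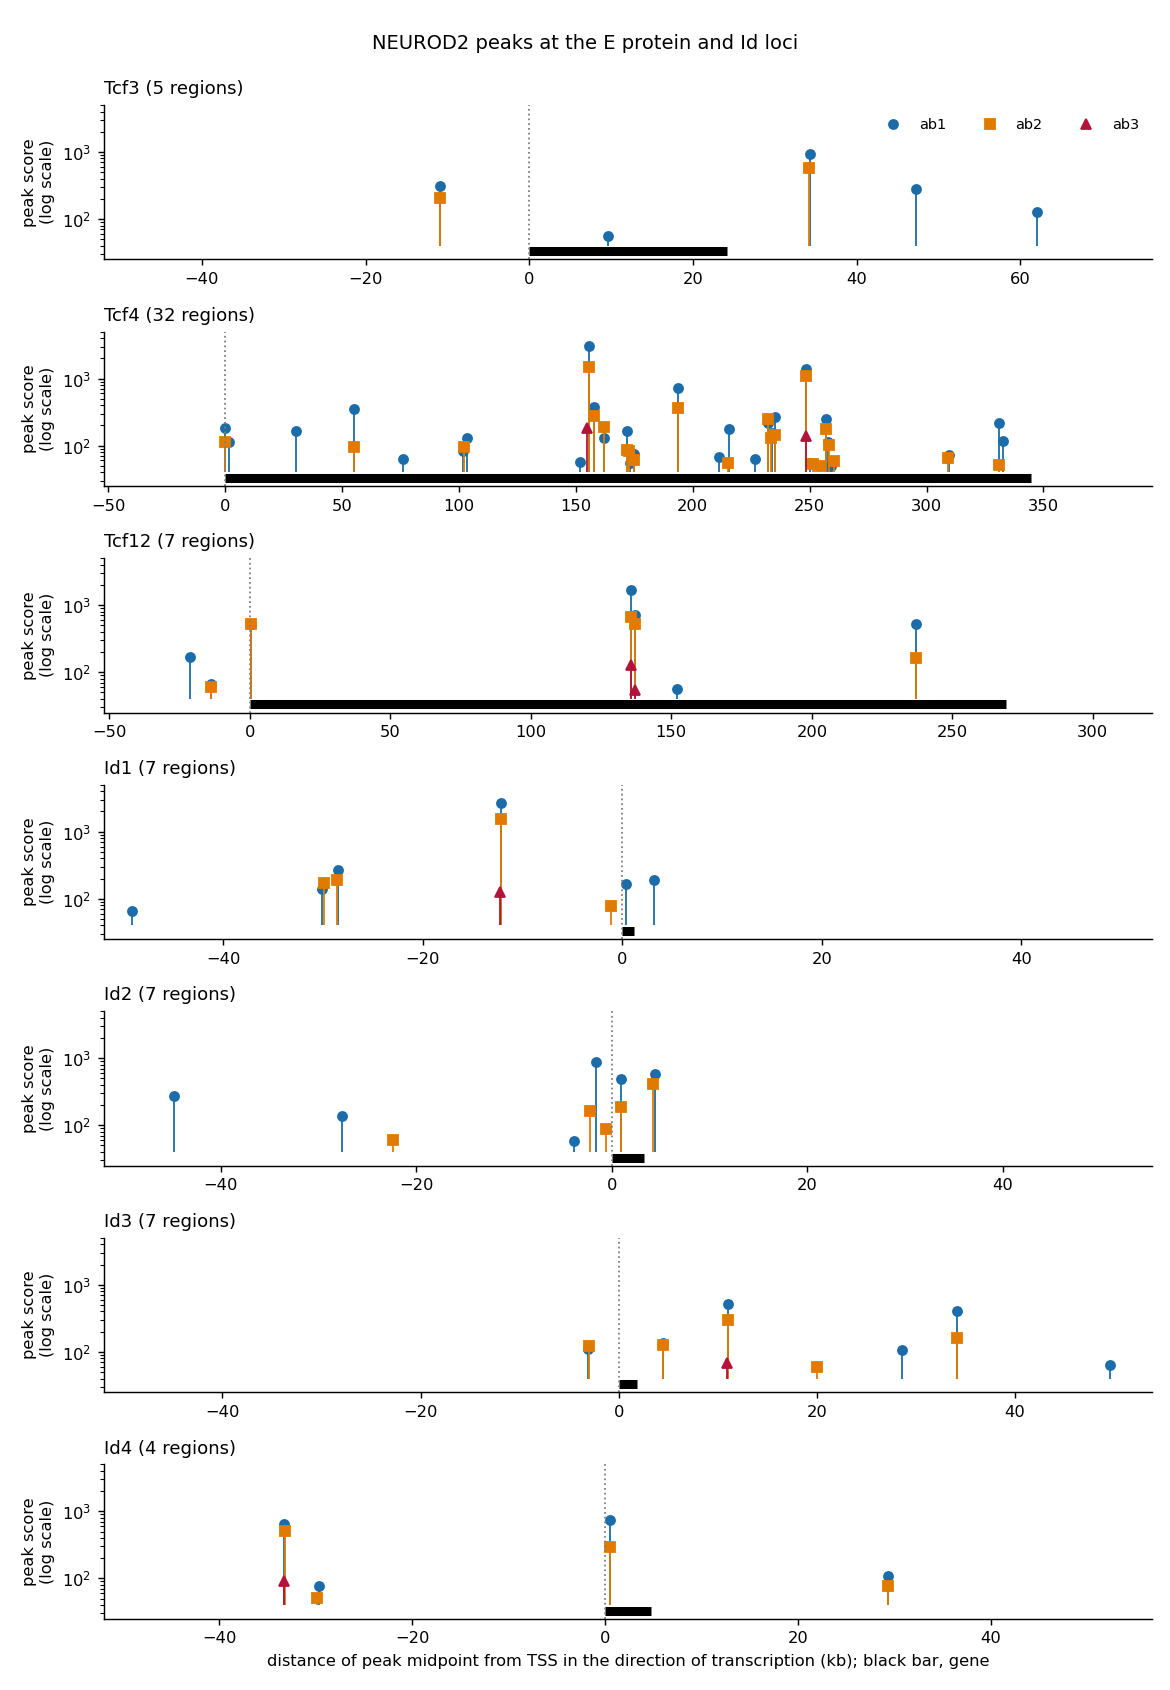
Peaks of ab1 (circles), ab2 (squares) and ab3 (triangles) at the 7 loci, by distance from the TSS in the direction of transcription (kb) and by peak score (log scale), with the gene as a black bar. Tcf4 carries 32 regions, most of them in introns 5, 6 and 8, and ab3 peaks occur at 5 of the 7 loci.

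Tcf4, an E protein whose loss in people causes Pitt-Hopkins syndrome, had the most regions of the 7 loci. With flanks of 50 kb, all peaks and all antibodies, it also had the highest number of shared regions per 100 kb. That rank depended on the setting. With a score of at least 100 its percentile among protein-coding genes was 89.0, below Id3 (96.6), Id1 (93.2) and Id2 (92.6). The gene (ENSMUSG00000053477.17) lies at chr18:69344489-69689079 on the + strand, and its 62 annotated transcripts have 58 different starts. It held 32 regions, of which 13 had 1 antibody, 17 had 2 and 2 had 3. Of the 19 shared regions, 14 lay in introns 5, 6 and 8 of the longest transcript, between 155.6 and 258.1 kb from its TSS.

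The region of highest score at Tcf4 was in intron 5, 155.6 kb from the TSS, at chr18:69498727-69501458. Its scores were 3092 for ab1, 1464 for ab2 and 183.5 for ab3, where a score is 10 times the −log10 of the p-value that the peak caller gave and 50 is the lowest in the files. These values exceeded 98.6% of all ab1 peaks, 97.5% of ab2 peaks and 81.1% of ab3 peaks. The other region of all 3 antibodies was in intron 8 at 248.6 kb (chr18:69592131-69593980), with scores of 1397, 1084 and 137.2. Next came a region of ab1 and ab2 in intron 6 at 193.5 kb, with scores of 733.4 and 365.2. The TSS of the longest transcript had a weak region by comparison, 164 bp upstream of it, with scores of 180 for ab1 and 111.8 for ab2.

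Both intronic Tcf4 regions of all 3 antibodies lay near starts of shorter transcripts, while most other shared intronic regions of the gene did not. The midpoint in intron 5 was 578 bp from the annotated start of ENSMUST00000207214.1, and the one in intron 8 was 67 bp from that of ENSMUST00000114978.8, both protein-coding. A further region in intron 5, with scores of 74.55 and 60.98, was 31 bp from the start of ENSMUST00000201205.3. These were the 3 of 18 shared intronic regions within 1 kb of an annotated start of Tcf4, and the others lay up to 30.6 kb from one. The gene has 58 annotated starts, and the peak lists do not say which were used. Over all protein-coding genes, 2.66% had a region of all 3 antibodies within 1 kb of any annotated start. Of the 7 genes only Tcf4 did, which also has the most annotated starts, and the share was not matched for their number.

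Tcf12, the E protein also called HEB (ENSMUSG00000032228.16, chr9:71842688-72111847, - strand), held 7 regions, 5 of them shared. Both of its regions of all 3 antibodies were in intron 5, at 135.6 and 137.1 kb from the TSS, and they are the 2 Tcf12 sequences shown above. The first (chr9:71975751-71976810) had scores of 1683 for ab1, 665.5 for ab2 and 128.0 for ab3. The second (chr9:71974375-71975194) had 718.0, 528.7 and 53.52, the lowest ab3 score of the 7 loci. The TSS itself was covered by a region 361 bp downstream, in intron 1, with nearly equal scores of 529.4 and 517.8 and no ab3 peak. The central 200 bp of that region were 82.5% G and C and held no CANNTG. A region in intron 13 at 236.9 kb had 527.1 for ab1 and 162.6 for ab2, with 3 E-boxes of the GC form, and one 13.8 kb upstream was weak, at 66.29 and 60.24.

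Tcf3 had the least binding among the E proteins that could be tied to the gene. It (ENSMUSG00000020167.14, chr10:80409514-80433647, - strand) held 5 regions, of which 2 were shared and none had ab3. The shared region 10.9 kb upstream (chr10:80444159-80444901) had scores of 316.1 for ab1 and 205.4 for ab2. The region of highest score, 944.4 and 581.1, lay 34.3 kb from the Tcf3 TSS but 182 bp from that of Mbd3, a subunit of the NuRD chromatin remodelling complex, in its first exon. Inside Tcf3 itself there was 1 region, in intron 3, with ab1 only and a score of 55.37.

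The Id genes are short, and each had a different layout of shared regions. Id1 (ENSMUSG00000042745.9, chr2:152736251-152737410, + strand) had 7 regions, 3 of them shared. Its strongest region (chr2:152723611-152724561) was 12.2 kb upstream, with no annotated gene at its midpoint and scores of 2712 for ab1, 1550 for ab2 and 128.1 for ab3. It held the highest ab2 score of the 40 shared regions, and only the Tcf4 intron 5 region had a higher ab1 score. At the Id1 TSS ab1 had a peak of 163.2 with its midpoint 410 bp downstream, in the coding part of exon 1, and ab2 had none there. The ab2 peak nearest the TSS, 1162 bp upstream with a score of 77.72, did not overlap it, so Id1 had no shared region within 1 kb of its TSS. The other 2 shared regions lay 28.6 and 30.0 kb upstream, within the gene H13, and were closer to the TSS of Mcts2 than to that of Id1.

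Id2 (ENSMUSG00000020644.9, chr12:25093799-25097140, - strand) had its 3 shared regions packed around the gene. The one nearest the TSS was 948 bp downstream, in the 5′ untranslated part of exon 2 of the longest transcript and 100 bp from the start of ENSMUST00000020974.6, with scores of 484.1 for ab1 and 189.4 for ab2. A region 1596 bp upstream had 887.1 and 162.8 and was 3174 bp wide. A region 4256 bp downstream, at the 3′ end of the gene, had 572.9 and 416.2. Shared regions covered 6.51% of the Id2 window, the highest share of the 7 loci. Id2 had no ab3 peak, and its 4 other regions had 1 antibody each.

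Id3 (ENSMUSG00000007872.3, chr4:136143497-136145392, + strand) had 7 regions, 4 of them shared, and none within 1 kb of its TSS. The nearest was 2969 bp upstream, with 111.8 for ab1 and 124.3 for ab2, one of 6 shared regions of the 40 where ab2 scored higher. Downstream, a region at 4489 bp had 137.6 and 127.4. The region of all 3 antibodies was at 11.1 kb (chr4:136154026-136155096), with 521.8, 298.8 and 68.47. The region at 34.2 kb, with 402.5 and 159.8, lay in intron 1 of E2f2, a cell cycle transcription factor, and was closest to its TSS.

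Id4 (ENSMUSG00000021379.2, chr13:48261228-48266026, + strand) was the only locus of the 7 where every region was shared, 4 of 4. The region at the TSS had its midpoint 559 bp downstream, in the coding part of exon 1, with 752.6 for ab1 and 294 for ab2. The region of all 3 antibodies (chr13:48227601-48228393) was 33.2 kb upstream, inside the noncoding genes A330033J07Rik and Gm36346, with 641.1, 509.0 and 91.06. The remaining 2 were weaker, with 76.89 and 50.97 at 29.6 kb upstream and 109.7 and 78.08 at 29.4 kb downstream.

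All 7 loci had a shared region, against 67.6% of protein-coding genes with windows drawn the same way. Tcf4, Tcf12, Id1, Id3 and Id4, 5 of 7, had a region of all 3 antibodies, against 26.7%. A shared region within 1 kb of the TSS was found for 4 of 7, Tcf4, Tcf12, Id2 and Id4, against 20.8%. None of the 7 had all 3 antibodies within 1 kb of that TSS, against 1.61% of protein-coding genes. With 7 genes these shares have steps of 1 gene in 7, and long genes have larger windows that more regions can enter.

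Counts were therefore also put per 100 kb of window. Id3 had 3.93 shared regions per 100 kb, Id4 3.82, Id1 2.97 and Id2 2.90, and among the E proteins Tcf4 had 4.27, Tcf3 1.61 and Tcf12 1.35. The median of the 7 was 2.97, against a median of 0.95 and an upper quartile of 2.35 over protein-coding genes. All 7 lay above the coding median, though with flanks of 100 kb Tcf3 was below it, at a percentile of 41.3. Without ab1 or without ab2, Tcf3 and Id2 had no shared region and were at a percentile of 36.6. With all antibodies and flanks of 50 kb, the loci ran from a rank percentile of 57.2 (Tcf12) and 61.3 (Tcf3) to 92.6 (Tcf4). Tied genes were placed at their mean rank. At this setting Tcf3 and Tcf12 were thus near the middle of all genes and the other 5 between 83.1 and 92.6. With a score of at least 100, Tcf3 was at 77.5 and Tcf12 at 71.5. Counting only regions closest to the TSS of the gene, they were at 70.25 and 83.27. Each antibody alone ranked the 7 loci by its own peaks at a median percentile of 89.5 for ab1, 89.7 for ab2 and 76.4 for ab3. The ranks of Tcf3 and Id1 rested on distant regions, since neither had a shared region within 10 kb, where both were at a percentile of 26.8. With the same flanks of 10 kb, Id2 was at 99.4 and Id3 at 99.5.

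**Figure D2:**
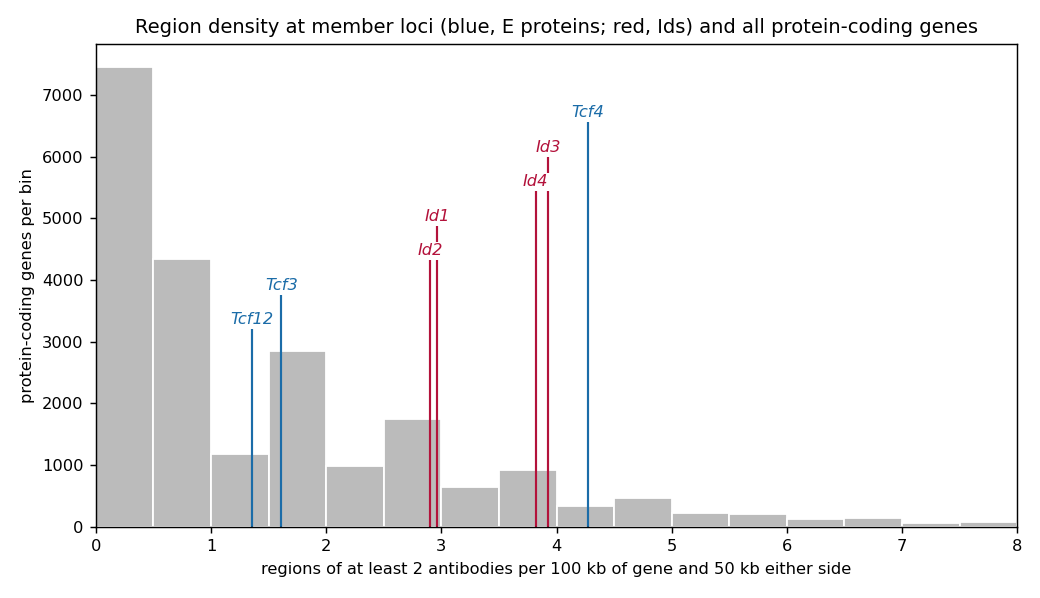
Shared regions per 100 kb of the gene and 50 kb either side (x axis) against the number of protein-coding genes in each bin of 0.5 (y axis, grey bars), with the E protein loci as blue lines and the Id loci as red lines, whose heights only separate the names. Tcf12 and Tcf3 stand at 1.35 and 1.61 and the other 5 loci between 2.90 and 4.27; genes above 8 are not drawn.

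The 3 antibodies differed in how many peaks they gave at these loci, ab1 63, ab2 47 and ab3 7, as they did in the whole genome, where these numbers were 51841, 35310 and 7470. Every one of the 40 shared regions had both ab1 and ab2, and every ab3 peak fell in a region that had both others. In the whole genome 7160 regions held all 3 antibodies, beside 7470 ab3 peaks, so such nesting was not particular to these loci. Of the 29 regions of 1 antibody, 23 had ab1 and 6 had ab2, a split not set beside that of the genome. Their median score was 65.4 and their highest 281.9, at the gene Mex3d in the Tcf3 window. Of the shared regions 7 (17.5%) had all 3 antibodies, against 22.2% of shared regions in the whole genome.

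In the shared regions the median ab1 score was 268.4, with a range from 54.6 to 3092, and the median over all shared regions of the genome was 277.7. For ab2 it was 167.3, from 51.0 to 1550, against 140.2. Over the 7 ab3 peaks it was 128, from 53.5 to 183.5, against 90.5. The ab1 score was higher than the ab2 score in 34 of the 40 regions (85.0%), against 89.1% in all. Across the 40 regions the log10 scores of ab1 and ab2 had a Pearson r of 0.881 and a Spearman rho of 0.845, given as a description, since regions share their libraries and are not replicates. Scores were not scaled for depth between libraries, so their ratio between antibodies is not a ratio of binding.

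Regions of all 3 antibodies had scores of at least 521.8 for ab1 and 298.8 for ab2. The 33 regions of 2 antibodies reached up to 944.4 and 581.1, so the ranges overlapped. The Mbd3 region, without ab3, scored higher for both ab1 and ab2 than 3 of the 7 regions that ab3 also called. The 7 regions of all 3 antibodies lay between 11.1 and 248.6 kb from the TSS of the longest transcript of their gene. Counting only the TSS of the longest transcript of each protein-coding gene, 5 shared regions lay within 1 kb of one, 4 at member genes and 1 at Mbd3. None of the 5 had an ab3 peak, and 7 of the other 35 did (20%), among them both Tcf4 regions near starts of shorter transcripts. In the whole genome, by the same starts, these shares were 7.88% of 4101 and 24.3% of 28160.

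**Figure D3:**
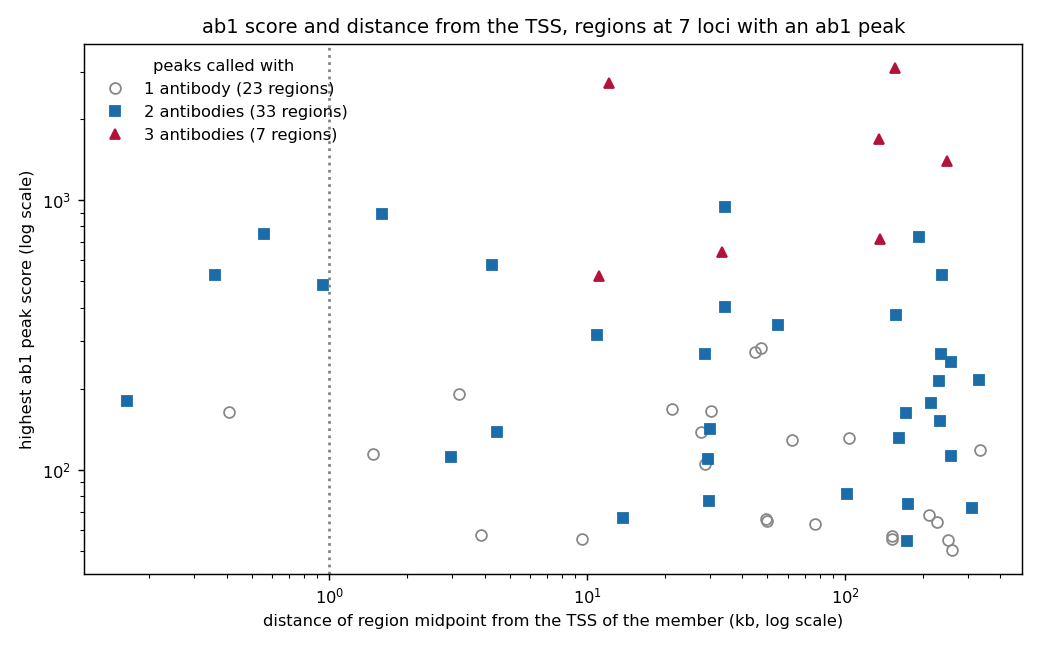
Highest ab1 score of each of the 63 regions with an ab1 peak (y axis, log scale) against the distance of its midpoint from the TSS of the member (x axis, kb, log scale), for regions of 1 antibody (open circles), 2 (squares) and 3 (triangles), with a dotted line at 1 kb. The 7 regions of all 3 antibodies lie at 11.1 kb or farther, and 4 regions of 2 antibodies lie within 1 kb.

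E-boxes were counted in the central 200 bp of each shared region. The extended E-box was taken as CANNTG with GC, GA, TC or TA as its middle bases followed by G or T, on either strand. It was present in 23 of 40 regions (57.5%, 95% Wilson interval 42.2 to 71.5, counting error only), close to the 59.7% of all shared regions in the genome. In windows of 200 bp that started 1000 bp outside the region it was present in 17 of 80 (21.3%, 13.7 to 31.4). By gene it stood in both shared regions of Tcf3, 11 of 19 at Tcf4, 1 of 5 at Tcf12, 2 of 3 at Id1, 2 of 3 at Id2, 3 of 4 at Id3 and 2 of 4 at Id4. Regions of 1 antibody had it in 20 of 29 (69.0%, 50.8 to 82.7). Regions of exactly 2 antibodies had it in 20 of 33 (60.6%, 43.7 to 75.3), and the intervals overlapped.

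At Tcf12 the value of 1 of 5 has an interval of 3.62 to 62.5%, which includes the genome's 59.7%. The 7 regions of all 3 antibodies had 3 of 7 (15.8 to 74.95%), and 63.4% of such regions in the genome held one. These values depended on where the window was centred. Around the midpoint of the ab3 peak, a choice added after the values had been seen, the extended E-box was present in 7 of 7 (64.6 to 100%), against 73.3% of all 7160 such regions. Tcf12 then had 3 of 5 and Tcf4 13 of 19, with the other loci as before. Around the ab1 or the ab2 peak it was 3 of 7. The ab3 midpoint lay between 38 and 727 bp from the region midpoint, and the largest distance was in the 2732 bp wide region of Tcf4 intron 5. That region had no CANNTG at its midpoint and 4 around the ab3 peak, 2 of them extended with GA or TC as middle bases.

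By middle bases, GC was present in 13 of 40 regions at the member loci (32.5%, 20.1 to 48.0) and GA or TC in 12 (30.0%, 18.1 to 45.4). With the regions of all 3 antibodies centred on the ab3 peak, GC stayed at 13 and GA or TC was in 15 (37.5%, 24.2 to 53.0). In all shared regions of the genome GC was in 28.1% and GA or TC in 43.1%. These genome values are for windows at the region midpoint, where the intervals of the member values include them. Genome shares of the 2 forms around the ab3 peak were not computed, so the recentred member values have no like comparison. The forms cannot be ranked at the member loci. The GC form was present in 3.75% of flanking windows, and the GA or TC form in 12.5%. The CG form was in 0 of 40 regions, with a Wilson upper bound of 8.76%, where the limit of 3 counts that a count of 0 allows is 7.5%, against 3.80% in all. Any CANNTG was in 36 of 40 (90.0%), 83.7% of all shared regions and 63.8% of flanking windows.

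**Figure D4:**
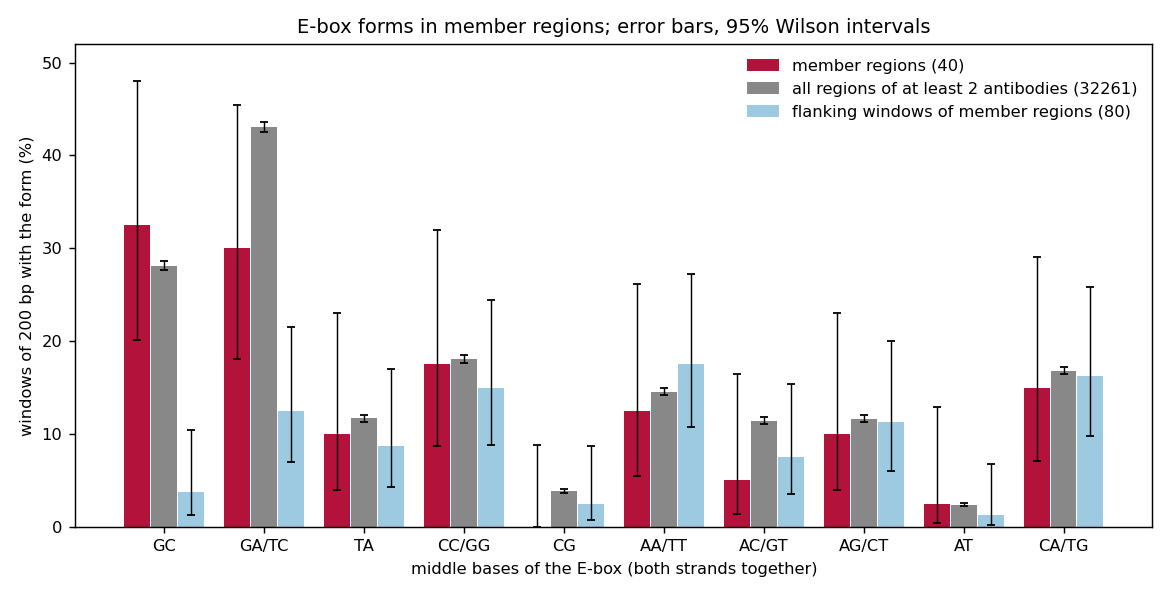
Share of 200 bp windows (y axis, %) that hold each of the 10 forms of CANNTG, named by the middle bases on both strands (x axis), in 40 member regions (red), 32261 shared regions of the genome (grey) and 80 flanking windows (blue), with 95% Wilson intervals as error bars. GC is at 32.5% in member regions and 3.75% in their flanks, and all 10 intervals of the member regions include the grey value.

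Few regions lay near starts, so E-boxes there are given as counts. Of the 5 shared regions within 1 kb of the longest-transcript TSS of a protein-coding gene, those at Id2, Id4 and Mbd3 held an extended E-box, each 1 copy of CAGCTG, and those at Tcf4 and Tcf12 held no CANNTG at all. That is 2 of 4 at member starts and 3 of 5 with Mbd3 (60%, 23.1 to 88.2), and 20.8% of such regions in the genome held one. Farther away it was 20 of 35 (57.1%, 40.9 to 72.0), against 65.3%. In the RefSeq promoter windows (GRCm38.p6), which reach from 250 bases before to 50 after a start, 5 of the 7 genes had an entry, with 7 windows. The extended E-box was in 2 of the 7, at Id2 and at one start of Tcf12, and in 26.3% of all 32851 windows. Tcf4 and Id1 had no entry.

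Other bHLH genes and the BMP pathway were counted in the same way. Of 15 class II bHLH genes, the kind that pairs with E proteins, 14 had a shared region in the window, 11 had all 3 antibodies there and 8 had a shared region at the TSS, with a median of 3.90 per 100 kb. Unlike the 7 member genes, 4 of them, Neurod1, Neurod6, Nhlh1 and Bhlhe22, had all 3 antibodies at the TSS. Neurod2 itself had 13.4 shared regions per 100 kb, at a percentile of 99.9. Of 7 Hes and Hey genes, a bHLH family that includes repressors induced by Notch, 7 had a shared region in the window. All 3 antibodies were found there for 2 of them, and 4 had a shared region at the TSS. The median of this list was 2.84 per 100 kb, beside 2.97 for the 7 member genes. Hes6, known as an antagonist of Hes1 that favours neuronal differentiation, had the highest TSS scores of that list, 3100 for ab1 and for ab2 and 283.5 for ab3. A score of exactly 3100 was shared by 661 ab1 peaks, so it may not resolve the strongest peaks. Of 19 BMP ligands, receptors, Smads and antagonists, which act upstream of Id genes, 15 had a shared region in the window, 8 had all 3 antibodies and 6 had a shared region at the TSS, none with ab3, with a median of 1.51 per 100 kb. Over all protein-coding genes the same counts were 67.6%, 26.7% and 20.8%, and 1.61% had all 3 antibodies at the TSS. The lists were not tested against each other.

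For each member, 1 protein-coding gene outside the member windows had the most similar summed score per 100 kb over the 3 antibodies, by Euclidean distance of log10(1 + sum). For Tcf3 it was Inpp5b (distance 0.0035), for Tcf4 Cep63 (0.014), for Tcf12 Skap1 (0.025), for Id1 Tspan5 (0.04), for Id2 Fhl2 (0.012), for Id3 Gcn1l1 (0.013) and for Id4 Eri3 (0.01). Id1 had the highest sum of ab1 scores, 3501 per 100 kb, and Tcf12 the lowest, 1015, both above the coding median of 366.1. For ab3 the sums ran from 0 at Tcf3 and Id2 to 126.6 at Id1, and the coding median was 0. The measure rests on 3 values, so that many genes come close.

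Peak lists hold no RNA, so neither the level of the 7 genes nor the makeup of the tissue could be checked from them. The control target Nhlh2 had a shared region at its TSS, with 158.4 for ab1 and 152.8 for ab2. None of Gsx2, Dlx2, Npy, Gad1 and Calb2, which the study took as negative controls, had one there. In the study's own quantitative PCR, only Gsx2 of these genes showed a slight enrichment. By the wider window of 50 kb either side, however, 4 of these 5 had a shared region, Gsx2 and Gad1 with 1 each and Npy and Calb2 with 2 each, and Calb2 had 1 of all 3 antibodies. A shared region in the window therefore does not set the 7 loci apart from these genes. Counting protein-coding genes only, 33 of the 40 shared regions at the 7 loci were closest to the longest-transcript TSS of the member. The other 7 were closest to that of a neighbour, Mbd3, Mcts2, E2f2, Ccdc68 or Cgnl1. Starts of noncoding genes lay closer to many of the 33, such as that of Gm24845 at Tcf4. The 2 assigned to Ccdc68 and the 1 assigned to Cgnl1 lay in introns of Tcf4 and Tcf12, within 9809 bp of another annotated start of those genes. Those starts were of transcripts annotated as retained intron or processed transcript, not as protein-coding. Which gene a region acts on was not measured.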

How the data were processed

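Chromatin of BALB/c cortex of stage E14.5 was precipitated with 3 NEUROD2 and 2 GFP antibodies, 1 library each. The authors mapped reads to mm10 with Bowtie, removed duplicates and reads with several positions, and ran MACS on each NEUROD2 library with the host-matched GFP library as control. The deposited files give, for each peak, its position and a score, 10 times the −log10 p-value, not scaled for depth. Read depth was not taken from the files, so precision beyond counting error is unknown.

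Peaks overlapping by at least 1 bp were merged, and midpoints were placed on GRCm38 with GENCODE M21 (longest-span transcript). Positions count from 1. Shares have 95% Wilson intervals. No test was run, since there is 1 library per antibody and 1 condition. The members and lists were chosen with earlier results of these data known. Besides the 7 members, the text describes their region nearest the TSS, that of highest score, the regions of all 3 antibodies, neighbours with the closest TSS, the lists and the most alike gene. Remaining shared regions were chosen for mention after their values were seen. BALB/c variants are not in the reference and could not be considered. Python 3.11.15, numpy 2.4.6, scipy 1.17.1, pysam 0.24.0 and matplotlib 3.10.9 were used, and the code was tested on simulated data. Alternatives were a score of at least 100, an overlap of 50%, flanks of 10 and 100 kb, other gene models, assignments, motif windows and leaving out each antibody.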

Additional observations from a re-analysis of the deposited data

How the results depend on the processing

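The totals of 69 regions, 40 shared ones and 7 loci that held them stayed within 1.5 times their count with a score of at least 100, an overlap of 50%, other flanks, other gene models and assignment to the closest start. Counts of shared regions per gene moved more. With a score of at least 100, Tcf4 went from 19 to 11 and Id4 from 4 to 2. With flanks of 10 kb, Tcf3 and Id1 had 0 and Id4 had 1, and with 100 kb, Tcf12 went from 5 to 9, Id1 from 3 to 7 and Id2 from 3 to 6. By closest start of a protein-coding gene, Tcf3 and Id1 had 1 each. The 7 regions of all 3 antibodies became 4 with a score of at least 100 and 11 with flanks of 100 kb. Leaving out 1 antibody gave 47 to 69 regions, 7 to 40 shared regions, 5 to 7 loci with one, 0 to 4 genes with one at the TSS, and 0 regions of all 3 by construction. The low values are those without ab1 and those without ab2, where a shared region must hold ab3. The share with an extended E-box then ran from 42.9 to 57.5%, the median density from 0.542 to 2.97 per 100 kb and the median percentile from 77.0 to 84.4. Tcf3 and Id2 fell to a percentile of 36.6 without ab1 and without ab2. The share with an E-box was 90% over the whole region, 32.5% in the central 100 bp and 90% for any CANNTG. In regions of all 3 antibodies it was 42.9% at the region midpoint and 100% at the ab3 midpoint. The median percentile was 96.1 when only regions closest to the TSS of the gene counted. No paired analysis was possible because there is 1 library per antibody and no test. A peak that an antibody lacks may have missed the caller's threshold at its depth, so absence from a list does not show absence of binding.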

Other observations

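Some regions near starts were called with 1 antibody. Id1 had ab1 alone at 410 bp (163.2) and ab2 alone at 1162 bp upstream (77.72), and Tcf4 had ab1 alone 1482 bp downstream (114.9), 120 bp from the start of ENSMUST00000202354.3. Of all 32 Tcf4 regions, 7 lay within 1 kb of an annotated start of the gene.

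Copies of the extended E-box were counted too. At least 2 copies were in 7 of 40 shared member regions (17.5%), against 22.2% of all shared regions, and the most was 4, in the Id1 region 12.2 kb upstream.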
